A study of Caenorhabditis elegans with 8 samples.

Results

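The genes described here are 10 genes of the AMPK and TOR pathways of Caenorhabditis elegans: aak-1, aak-2, aakb-1, aakb-2, let-363, daf-15, rict-1, rsks-1, raga-1 and rheb-1. They were chosen by name, and every deposited DAF-16 peak assigned to one of them was taken. These were 12 of 12255 peaks, 7 of 6859 in daf-2(-) and 5 of 5396 in WT. The study mapped endogenous DAF-16, the FOXO transcription factor that insulin signalling restrains, by chromatin immunoprecipitation and sequencing (ChIP-seq) with an antibody raised against the worm's own protein. The strains were daf-2(-), which carries the e1370 reduction-of-function allele of the insulin/IGF-1 receptor gene, the double mutant daf-16(mgDf50);daf-2(e1370), daf-16(mgDf50), and WT (N2). In all 4 strains whole worms of mixed stages were grown at 20 °C on OP50 bacteria, so that no peak can be placed in a tissue or a stage. Each strain had 1 ChIP and 1 input library made from pooled chromatin. No spread between replicates exists, and no difference between the strains was tested.

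AMP-activated protein kinase (AMPK) is a trimer of a catalytic alpha, a beta and a nucleotide-sensing gamma subunit that becomes active when cellular energy is low. TOR is a kinase that drives growth and protein synthesis when amino acids are plentiful. It works in TORC1, with Raptor, downstream of the Rag and Rheb GTPases and upstream of S6 kinase, and in TORC2, with Rictor. In worms both pathways are known, like insulin signalling, for their effects on life span.

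DAF-16 peaks were assigned to 5 of the 10 genes in daf-2(-) and to 5 of the 10 in WT. Of all protein-coding genes, 18% had a daf-2(-) peak and 15% a WT peak. The genes with a peak in both strains were aak-2, aakb-1, daf-15 and rsks-1, 4 of 10, and 13% of protein-coding genes had a peak in both lists. The Rictor gene rict-1 had a peak in daf-2(-) alone, as had 5.01% of protein-coding genes, and the Rheb gene rheb-1 in WT alone, as had 1.99%. No peak was assigned to aak-1, aakb-2, let-363 or raga-1 in either strain. At the rheb-1 site, however, daf-2(-) also had a peak, which the lists gave to the neighbouring gene.

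Both lists hold only peaks that, as the study describes them, did not coincide with a peak of the matching strain without DAF-16. The summit height is the number of tags piled up at the highest point of a peak, and the fold enrichment is the ratio of that height to the background expected there from the input. The deposited heights and tags are not scaled to the depth of the libraries, which was not analysed here. Unscaled, peaks were lower in daf-2(-) over the whole list, with a median height of 56 in daf-2(-) and 90 in WT. The median count was 106 tags in daf-2(-) and 184 in WT. The fold enrichment is a ratio to background and not such an unscaled count. Its median was 7.24 in daf-2(-) and 10.53 in WT. Total tags inside peaks were 1051563 in daf-2(-) and 1315194 in WT. Heights of both strains are therefore read only beside the ratio found at all shared sites, and a lower height in daf-2(-) is not read as less DAF-16. Intervals given for tags are exact Poisson 95% intervals and cover counting error only.

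The coordinates of the 2 lists did not lie on one another. At 4717 sites where peaks of both lists overlapped, the daf-2(-) summit had the higher coordinate in 76.1%, by a median of 28 bp. This median offset grew along the chromosomes. In windows of 2 Mb it was 5 bp at the start of chromosome III and 98.5 bp at its end, 3 bp at the start of chromosome X and 74 bp at its end, and no more than 14 bp anywhere on chromosome I. The gene models were the same in both lists for 100% of the 3957 transcripts they shared. The methods name WS230, yet 99.3% of the non-coding gene models in either list had the coordinates of the later WBcel235 assembly. Which list was offset from the gene models was not settled. Positions are given below as deposited, and a difference between strains of up to about the local offset in position or in distance to a transcription start site (TSS) is not read as a move of DAF-16.

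The AMPK genes come first. Among the catalytic subunits, aak-2 had a peak in both strains and aak-1 in neither. The aak-2 peak (WBGene00020142, chromosome X) lay at 16798143 to 16799898 in daf-2(-), with 411 tags (372 to 453), a height of 107 and a fold enrichment of 14.09. In WT it lay at 16798042 to 16799860, with 556 tags (511 to 604), a height of 158 and a fold enrichment of 18.48. The interval was long, 1756 bp in daf-2(-) and 1819 bp in WT, covered the TSS of the assigned transcript T01C8.1c.1 and was centred 684 bp upstream of it in daf-2(-) and 754 bp in WT. In tags it stood above 95.1% of the daf-2(-) list and 94.4% of the WT list, and in height above 84.0% of the daf-2(-) list and 84.1% of the WT list.

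The aak-2 locus held a second, higher peak that the lists did not give to aak-2. It was assigned to T01C8.9, a short non-coding RNA that is nested inside aak-2 in the RefSeq gene order, and was centred 2680 bp upstream of the T01C8.1c.1 TSS in daf-2(-) and 2748 bp upstream in WT. Its height was 202 in daf-2(-) and 249 in WT. Beyond it, a peak of got-1.2 had a height of 188 in daf-2(-) and 233 in WT. All 3 sites were occupied in both strains, and the one assigned to aak-2 was the lowest of them in each.

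The beta subunits hold the AMPK trimer together. Here aakb-1 had peaks and aakb-2 had none assigned to it. The aakb-1 gene (WBGene00010115, chromosome X) had 2 peaks in daf-2(-) and 1 in WT, all of them upstream of the TSS and none covering it. The nearer peak was at 13754205 to 13755103 in daf-2(-), with 187 tags (161 to 216), a height of 107 and a fold enrichment of 14.68. In WT it was at 13754116 to 13755005, with 231 tags (202 to 263), a height of 139 and a fold enrichment of 16.26. The second daf-2(-) peak, at 13752590 to 13754083, had 199 tags (172 to 229) spread over 1494 bp, so that its height of 48 was lower than that of the nearer peak although its tag count was not. It was centred 2432 bp upstream of the TSS and had no WT partner, and the WT peak started just past its downstream end.

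For aakb-2, the gene that precedes it had a peak. This gene, Y47D3A.14, had a peak at chromosome III, 11236578 to 11237406 in daf-2(-) and 11236484 to 11237405 in WT. Both intervals ran past the TSS of Y47D3A.14, at 11236870, towards aakb-2. The lists hold no gene model for aakb-2, and its distance from this peak was not measured. The height was 154 in daf-2(-) and 140 in WT, and the fold enrichment 21.12 in daf-2(-) and 17.9 in WT. This site was higher in daf-2(-), as few were. Its log2 height ratio of 0.14 stood above that of 96.8% of all shared sites. For aak-1, neither flanking gene had a peak in either list.

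**Figure D1:**
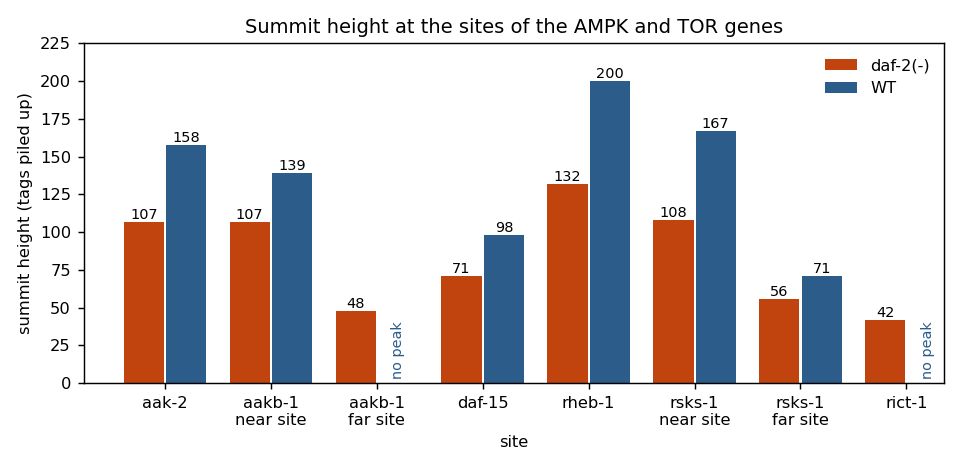
Summit height, in tags piled up at the highest point of the peak, at the 8 sites of the AMPK and TOR genes, with daf-2(-) bars (orange) left of WT bars (blue) and 1 library for each strain. At the 6 sites occupied in both strains the daf-2(-) bar is the lower one, from 56 against 71 at the far rsks-1 site to 132 against 200 at rheb-1, and the far aakb-1 site and rict-1 have a daf-2(-) bar alone. The daf-2(-) bar at rheb-1 is the peak assigned to spk-1, and the WT bar at the far rsks-1 site is the peak assigned to Y47D3A.35.

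Of the TOR complex genes, the TOR kinase gene let-363 had no peak, and neither had the genes on both sides of it. DAF-16 peaks were found at daf-15, which encodes Raptor, the defining subunit of TORC1. The daf-15 peak (WBGene00000911, chromosome IV) spanned 9385810 to 9386578 in daf-2(-), with 90 tags (72 to 111), a height of 71 and a fold enrichment of 9.63. In WT it spanned 9385772 to 9386598, with 120 tags (99 to 143), a height of 98 and a fold enrichment of 12.53. It sat on the TSS itself, with its centre 14 bp upstream in daf-2(-) and 23 bp upstream in WT. Of the 12 peaks, the daf-15 peaks were the closest to a TSS.

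The rict-1 gene encodes Rictor, the defining subunit of TORC2. Its peak in daf-2(-) (WBGene00009245, chromosome II, 13116701 to 13117460) had 81 tags (64 to 101), a height of 42 and a fold enrichment of 5.76. This was the weakest of the 7 daf-2(-) peaks, and 24.9% of the daf-2(-) list was lower in height. The interval covered the TSS of transcript F29C12.3b and was centred 279 bp upstream. No WT peak of any assignment lay within 5 kb of the gene model, while the lowest peak of the WT list had a height of 32. Tags at this place in WT were not measured here, so that a WT level under the calling threshold and none at all cannot be told apart.

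Downstream of TORC1, rsks-1 encodes the S6 kinase. It had 2 peaks in daf-2(-) and 1 in WT (WBGene00012929, chromosome III). The nearer daf-2(-) peak, at 11243180 to 11243821, had 146 tags (123 to 172), a height of 108 and a fold enrichment of 14.81. The WT peak at 11243043 to 11243959 had 230 tags (201 to 262), a height of 167 and a fold enrichment of 21.36. Both were centred 1688 bp upstream of the TSS, and the WT interval held the whole of the daf-2(-) interval.

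The second rsks-1 peak of daf-2(-), at 11241513 to 11242277, was centred 3294 bp upstream, with 83 tags (66 to 103), a height of 56 and a fold enrichment of 6.47. WT had a peak at the same place, 11241325 to 11242265, with 145 tags, a height of 71 and a fold enrichment of 6.7. There it was assigned to the non-coding RNA Y47D3A.35, which comes next after aakb-2 in the RefSeq gene order. The WT centre was 3344 bp from the TSS of Y47D3A.35 and 3394 bp from that of rsks-1, closer to the first by 50 bp. The daf-2(-) centre was closer to rsks-1 by 150 bp. The median offset of the lists around this site was 103 bp. The 2 sites assigned to rsks-1 in daf-2(-) were therefore occupied in both strains, although by assignment rsks-1 had 2 peaks in one and 1 in the other. The distance of the far site from aakb-2 was not measured.

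**Figure D2:**
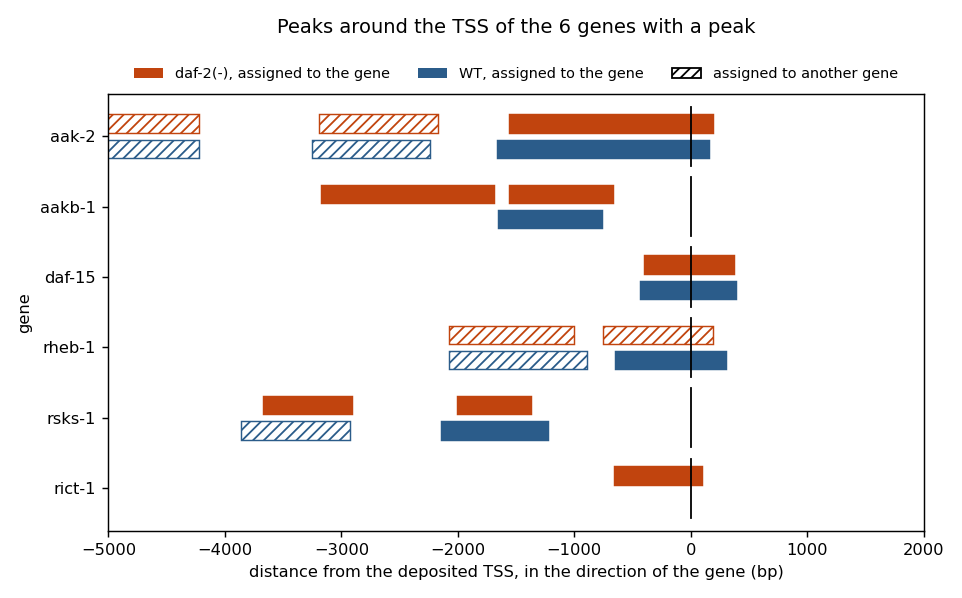
Position of the peaks from 5 kb upstream to 2 kb downstream of the deposited TSS (vertical lines) of the 6 genes with a peak, in bp along the direction of each gene, with daf-2(-) bars (orange) above WT bars (blue). Filled bars were assigned to the gene named at the left and hatched bars to another gene, and at rheb-1 and the far rsks-1 site a filled bar of one strain faces a hatched bar of the other. Bars of the strains are displaced by up to about 100 bp by the offset between the lists, and bars that reach the left edge are cut there.

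The GTPases upstream of TORC1 were represented by rheb-1. Rheb is the GTPase that activates TORC1 directly. The WT peak of rheb-1 (WBGene00010038, chromosome III, 9455730 to 9456683) had 272 tags (241 to 306), a height of 200 and a fold enrichment of 24.67. It was the highest of the 12 peaks, and 91.9% of the WT list was lower. The daf-2(-) peak at this place, 9455842 to 9456782, had 197 tags, a height of 132 and a fold enrichment of 16.8, and overlapped the WT peak by 842 bp. It was assigned to spk-1, a gene that runs in the other direction from a TSS close by. Its centre was 251 bp from the spk-1 TSS and 280 bp from the rheb-1 TSS, while the WT centre was 356 bp from the spk-1 TSS and 174 bp from the rheb-1 TSS. The daf-2(-) choice between the 2 genes thus rested on 29 bp, against a local offset of 83 bp. Among all shared sites, 7.21% carried different gene names in the 2 lists, a share that also counts a name written in 2 ways. Counted by site in place of assignment, 6 of the 10 genes had a peak in daf-2(-), beside 18.6% of protein-coding genes counted in this way, and 5 of the 10 had one in WT, beside 15.6%. The 5 WT genes had a peak in both strains, beside 14.2%. Of the 10 genes, rict-1 was then the only one with a peak in daf-2(-) alone, beside 4.4%, and none had a peak in WT alone, beside 1.44%.

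The raga-1 gene encodes the RagA GTPase, which carries the amino acid signal to TORC1. It had no peak in either list. Next to it, saps-1 had a peak in daf-2(-) alone, with a height of 38 and a fold enrichment of 4.23.

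The height ratio of daf-2(-) over WT was then set beside that of all shared sites. Of the 7 daf-2(-) peaks, 5 overlapped a WT peak (71.4%, Wilson 95% interval 35.9% to 91.8%), close to the 70.6% of the whole daf-2(-) list. The interval treats the peaks as independent draws, although aakb-1 and rsks-1 gave 2 each, and it measures no spread between replicates. All 5 WT peaks overlapped a daf-2(-) peak, beside 87.4% of the WT list. This gave 6 shared sites with pairs of peaks, and height was lower in daf-2(-) at 6 of the 6. Height was also lower in daf-2(-) at 93.4% of all 4717 shared sites, so this direction did not set the genes apart.

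On the log2 scale the ratio of height was -0.63 at the near rsks-1 site, -0.60 at rheb-1, -0.56 at aak-2, -0.46 at daf-15, -0.38 at aakb-1 and -0.34 at the far rsks-1 site. The median of these 6 was -0.51, and the median of all shared sites was -0.53 with quartiles of -0.77 and -0.29. By height, every one of the 6 sites fell between those quartiles. By fold enrichment the median was -0.39 at the 6 sites and -0.39 at all shared sites. By tags per kb of peak it was -0.35 at the 6 sites and -0.42 at all shared sites. By fold enrichment the far rsks-1 site (-0.05) lay above the upper quartile of all shared sites, -0.14. By tags per kb the near rsks-1 site (-0.14) lay above that quartile, -0.24.

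Counting error was smallest at aak-2, where the ratio of tags per kb, daf-2(-) over WT, was 0.766 with an exact 95% interval of 0.672 to 0.871. The ratio was 0.907 at the near rsks-1 site, with an interval of 0.732 to 1.12, and 0.807 at daf-15, with an interval of 0.607 to 1.07. The intervals cover counting error only, the peaks of the strains differ in called length, and the tags are not scaled to depth, so that a ratio of 1 is no mark of equal binding. The interval of each of the 6 sites covered 0.746, the median ratio of all shared sites.

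Known targets of DAF-16 were set on the same scale. The superoxide dismutase gene sod-3 had a height of 181 in daf-2(-) and 126 in WT, a log2 ratio of 0.52 that exceeded 99.3% of shared sites. By fold enrichment its log2 ratio was 0.62. The metallothionein gene mtl-1 had a height of 153 in daf-2(-) and 138 in WT, a log2 ratio of 0.15 that exceeded 97.0%. The other measures placed mtl-1 lower in daf-2(-), with a log2 ratio of fold enrichment of -0.09, above 79.3% of shared sites, and a ratio of tags per kb of 0.962, with an interval of 0.819 to 1.13. By none of the 3 measures was any of the 6 sites of the AMPK and TOR genes higher in daf-2(-).

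**Figure D3:**
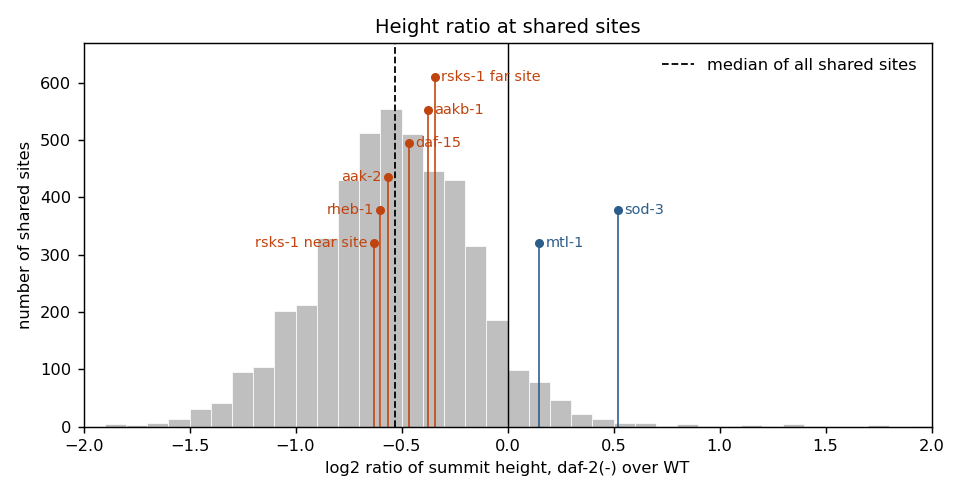
Histogram of the log2 ratio of summit height, daf-2(-) over WT, at the 4717 shared sites (grey), with the 6 sites of the AMPK and TOR genes marked in orange, sod-3 and mtl-1 in blue, and the median of all sites dashed. The orange marks run from -0.63 to -0.34 around the median of -0.53, and the blue marks lie at 0.15 and 0.52. The height of a mark has no meaning.

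Summit positions were compared only after the local offset was known. The daf-2(-) summit had the higher coordinate at 6 of the 6 sites, by 9 bp at daf-15, 51 bp at rheb-1, 64 bp at aakb-1, 100 bp at aak-2, 102 bp at the far rsks-1 site and 111 bp at the near one. Shared sites within 1 Mb of each had a median offset of 15 bp around daf-15, 83 bp around rheb-1, 73.5 bp around aakb-1, 75 bp around aak-2, 103 bp around the far rsks-1 site and 102 bp around the near one. The summits at the 6 sites thus differed from their surroundings by 1 to 32 bp, most at rheb-1, where 6.61% of surrounding sites had a smaller offset. All overlaps at these sites, 642 to 1718 bp, were far longer than the offset.

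As to where the peaks lay, all 12 were centred upstream of the TSS of the assigned transcript, whereas 67.2% of the daf-2(-) list and 65.3% of the WT list were. This need not be upstream of the whole gene. The aak-2 peaks lay downstream of T01C8.9, which is nested inside aak-2, and so within the gene, upstream only of the T01C8.1c.1 start. Within 500 bp upstream there were 2 of 7 in daf-2(-), beside 36.8% of the list, and 2 of 5 in WT, beside 36.3%. The peak covered the TSS in 3 of 7 in daf-2(-), beside 53.2% of the list, and in 3 of 5 in WT, beside 58.1%, which are shares near those of the lists. The peaks of aakb-1 and rsks-1 ended 666 to 2912 bp short of the TSS.

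A wider list of 32 genes around the same pathways was counted in the same way. In daf-2(-) 17 of the 32 had a peak, in WT 15, in both 15 and in WT alone 0, against the shares of 18%, 15%, 13% and 1.99% for all protein-coding genes. The list was drawn up from the pathways with earlier results of these data known, it holds genes of unlike length and upstream space, and its shares were not tested. The counts of its groups below stand beside the same shares of all protein-coding genes and carry the same limits. The 32 genes had 30 peaks in daf-2(-), of which 21 overlapped WT peaks, beside 70.6% of the whole daf-2(-) list. They had 21 peaks in WT, all of which overlapped daf-2(-) peaks, beside 87.4% of the WT list.

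Among the gamma subunits, the nucleotide sensors of AMPK, 4 of 5 had peaks in both strains and aakg-2 had none. The height of the highest peak was 51 in daf-2(-) and 96 in WT at aakg-1, 38 in daf-2(-) and 76 in WT at aakg-3, and 109 in daf-2(-) and 169 in WT at aakg-5. At aakg-4 the height was 169 in daf-2(-) and 149 in WT (log2 ratio 0.18, above 97.5% of all shared sites). By height no other shared site of the 32 genes was higher in daf-2(-). In tags per kb the aakg-4 ratio was 1.03, with an interval of 0.894 to 1.2, above 94.4% of shared sites. By fold enrichment ife-2 (log2 ratio 0.13) and 1 crh-1 site (0.01) were higher in daf-2(-) too. That crh-1 site had a ratio of tags per kb of 1.06. By each of these 2 measures 18 of the 21 shared sites of the list were lower in daf-2(-). In the complex of the upstream kinase, 1 of 5 genes had a peak, mop-25.1, a homologue of the mammalian scaffold MO25, with a height of 71 in daf-2(-) and 117 in WT. The gene of the kinase itself, par-4, had none.

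The 5 genes for proteins that AMPK is known to act on, in worms or in mammals, had peaks in both strains, beside 13% of protein-coding genes. The highest was at unc-51, the autophagy kinase, with a height of 245 in daf-2(-) and 298 in WT. The CREB gene crh-1 had 7 peaks in daf-2(-) and 5 in WT, and the height of the highest was 124 in daf-2(-) and 204 in WT. All 5 WT sites of crh-1 were occupied in daf-2(-) too. The height of the highest peak was 61 in daf-2(-) and 98 in WT at crtc-1, the gene of the CREB coactivator. It was 102 in daf-2(-) and 130 in WT at efk-1, which encodes the kinase of elongation factor 2, and 110 in daf-2(-) and 116 in WT at sbp-1, the worm SREBP gene.

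Of 9 genes of TORC1 and its amino acid inputs, 4 had a peak in daf-2(-) and 2 in WT. The Rag partner gene ragc-1 and the folliculin gene flcn-1 had peaks in daf-2(-) alone, 1 with a height of 44 at ragc-1 and 3 with heights of 36 to 45 at flcn-1. These peaks, like that of rict-1, were lower than the daf-2(-) median of 56. The sestrin gene sesn-1 had a height of 50 in daf-2(-) and 60 in WT, and lmtr-3, listed as C06H2.6, had a height of 32 in daf-2(-) and 59 in WT. No peak was assigned to mlst-8, nprl-2, nprl-3, lmtr-2 or lmtr-5. Of the TORC2 genes sinh-1 and sgk-1, neither had a peak.

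Among translation initiation factors 3 of 6 genes had peaks, all of them genes of cap-binding eIF4E proteins. The height at ife-3 was 242 in daf-2(-) and 288 in WT, at ife-2 141 in daf-2(-) and 142 in WT, and at ife-4 118 in daf-2(-) and 161 in WT. Over the 21 shared sites of the wider list the median log2 height ratio was -0.60, beside -0.53 at all shared sites, and height was lower in daf-2(-) at 19 of the 21.

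**Figure D4:**
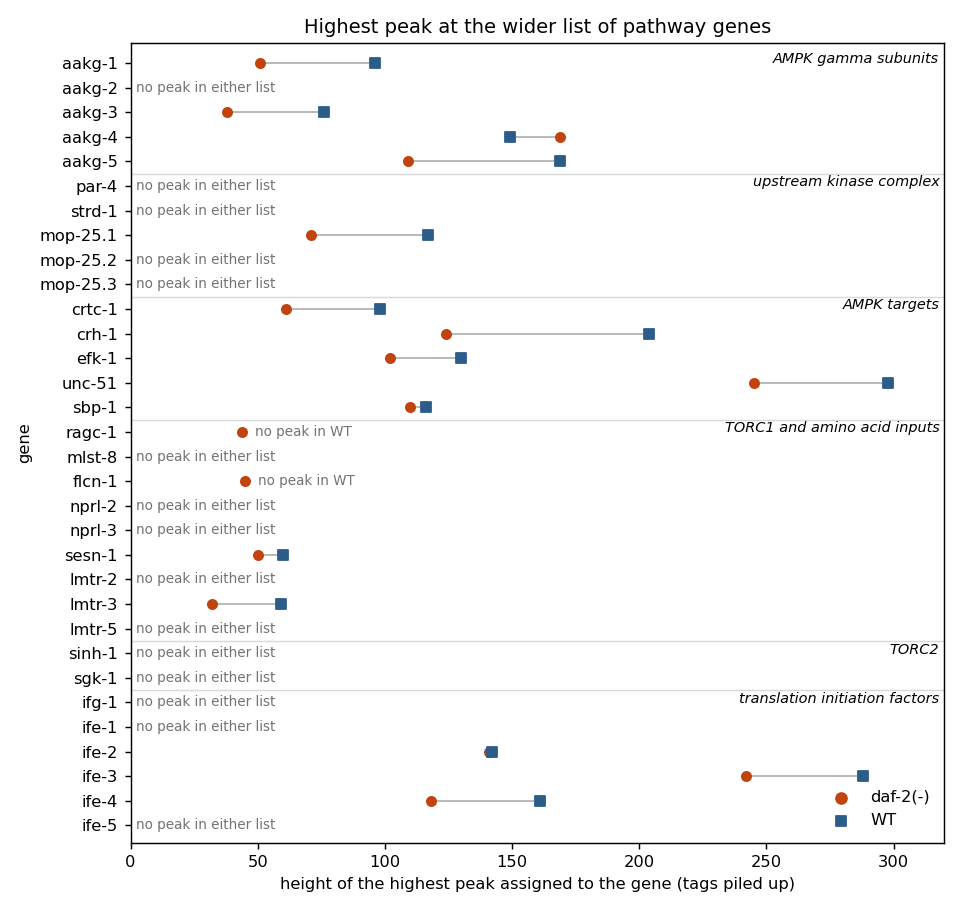
Height of the highest peak assigned to each of 32 further pathway genes, in tags piled up, in daf-2(-) (orange circles) and WT (blue squares), with genes grouped by role and 1 library for each strain. Genes with a peak in both strains are joined by a line, 15 genes have no peak in either list, and aakg-4 is the one gene whose circle lies right of its square.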

How the data were processed

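DAF-16 ChIP-seq peaks of daf-2(-) and WT worms were analysed, with groups taken from the sample labels. The study states that single-end reads were aligned with Bowtie to WS230 and that MACS was run on every ChIP library with the input of the same strain as control. The submitters' processing notes give Bowtie 0.12.7 and MACS 1.4.2. The deposited lists give the count of tags in each peak. Summit height was deposited by the authors as a pileup signal, fold enrichment as a ratio over local background, and the false discovery rate (FDR) as a percent. The authors assigned peaks to the nearest TSS, and in 100% of peaks the deposited distance was that of the centre, to within 1 bp. The depth of the libraries was not analysed here. A table of tag density had 1 value column that names no sample, and it was not used. A p-value column of the daf-2(-) list was not used.

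The members and gene lists were chosen with earlier results of these data known. All members, and genes of the wider list with a peak, were named. Peaks overlapping by at least 1 bp were called shared, and each WT peak was paired with the overlapping daf-2(-) peak of nearest summit. No p-value was computed, since each strain had 1 library. Background shares are over 19983 protein-coding genes of the RefSeq WBcel235 table, which matched all 10 members and was used for names, biotypes, gene order and a comparison of gene models. Alternatives were other overlaps, FDR and fold limits, a TSS window, other assignments and other strength measures. A planned count of FOXO motifs was not run, because no promoter sequence was used here. The overlap step was tested on simulated data. Python 3.11.15, numpy 2.4.6, pandas 2.3.3 and scipy 1.17.1 were used.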

Additional observations from a re-analysis of the deposited data

How the results depend on the processing

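Of 30 alternative values for 12 results, 4 moved past the margin set for them, which was a factor of 1.5 for a count, the Wilson interval for a share and the range over the peaks or sites for a median. These margins are wide, and the other 26 values could differ within them. The median height of the daf-2(-) peaks was 107 in place of 71 with the highest peak of each gene, and the median distance of the WT peaks was 517 bp in place of 754 bp by summit. With peaks of a fold enrichment of 10 or more, 3 genes (aak-2, aakb-1 and rsks-1) had a peak in daf-2(-) in place of 5. This stood beside 6.42% of protein-coding genes, and the peaks of daf-15 and rict-1 were below that limit. At this limit 100% of the daf-2(-) peaks of the genes (3 of 3) overlapped a WT peak of that strength, in place of 71.4%. The share of the whole daf-2(-) list at this limit was not computed, so the rise is not read as a trait of the genes. With all genes of the RefSeq table as the background in place of protein-coding genes, 11.8% had a daf-2(-) peak and 9.79% a WT peak, in place of 18% and 15%. The TSS window and an FDR of 1% or less left the same 5 genes in each strain, beside 15.3% of protein-coding genes in daf-2(-) and 12.5% in WT for the window, and 18% and 14.9% for the FDR. Adding to the assigned peaks any peak that overlapped the gene model gave 6 genes in daf-2(-) and 5 in WT. Adding any peak at a site of the other list, an alternative chosen after seeing the data, gave the same counts. The peaks of aakb-1 and rsks-1 did not overlap the gene models and were counted by assignment. By site 18.6% of protein-coding genes had a daf-2(-) peak and 15.6% a WT peak. By gene model no such share was computed, since the lists hold models only of genes with a peak. By either rule aak-1, aakb-2, let-363 and raga-1 could therefore not gain a peak, and the counts say nothing about these genes. With summits within 100 bp, 42.9% of the daf-2(-) peaks and 80% of the WT peaks were shared. The offset between the lists alone reaches this limit on chromosome III, and the shares of the whole lists under it were not computed. No paired analysis was possible because the libraries carry no replicate numbers and no result comes from a test. Library depth was not analysed here, so heights of the strains are read only beside the median ratio of all shared sites.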

Other observations

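The order of the sites by height was much the same in both strains. In daf-2(-) the heights ran, from high to low, over rheb-1 (132), near rsks-1 (108), aak-2 and aakb-1 (107 each), daf-15 (71) and far rsks-1 (56), and in WT over rheb-1 (200), near rsks-1 (167), aak-2 (158), aakb-1 (139), daf-15 (98) and far rsks-1 (71). These values are a description of 1 library for each strain. The order was not compared with that of other shared sites, so its likeness is not read as a trait of these genes.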
